A study of Homo sapiens with 6 samples.

Results

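The annexins are a family of calcium-dependent, phospholipid-binding proteins, and their messenger RNAs were followed here across 6 RNA sequencing libraries. The members were the 10 gene rows whose symbol in the deposited count table is ANXA1 to ANXA7, ANXA9, ANXA10 or ANXA11, out of 27452 rows in all, and 9 of the 10 had enough counts to be tested. All libraries carry the label HepG2, a long-established line from a human liver tumour. They fall into 3 labelled Ctrl shRNA (the controls) and 3 labelled STAT3 shRNA (the knockdown libraries). Short hairpin RNA (shRNA) is cut in the cell to a small RNA that lowers the messenger it matches, and STAT3 is a transcription factor activated by cytokine receptors. Both groups are shRNA lines grown in DMEM with serum and antibiotics. The labels give neither the hairpin sequences nor whether libraries numbered 1 to 3 come from separate cultures or hairpins. The p-values therefore rest on the spread of these libraries alone, possibly a technical one, and other differences between the constructed lines cannot be told apart from the shRNA.

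Total counts lay between 17408543 and 25862027 per library. STAT3 (ENSG00000168610.14) lay at 246 to 262 CPM (counts scaled to one common library size, after correction for library composition) in the controls and at 34.8 to 36.2 CPM in the knockdown libraries, so each library carried the STAT3 level of its label. The labelled cell type was checked with 20 hepatocyte and hepatoblastoma markers. Of these, 10 had a row, and those without a row have no measured level. Albumin (ALB) had at most 3 counts, and 3 markers (TF, RBP4 and HNF4A) reached 1 CPM in any library. HNF4A averaged 1.51 CPM in the controls and 6.58 CPM in the knockdown libraries, and most other measured markers were near the floor in both groups. The measured hepatocyte markers summed to 4.14 to 4.96 CPM in the controls and 7.03 to 10.1 CPM in the knockdown libraries. HNF4A was called higher, and the part of these markers in the results was not tested. Of 6 bile duct markers 3 were called higher (KRT19 and EPCAM among them) and 1 lower (KRT7, lost without knockdown library 1 or 3), with sums of 1036 to 1306 and 891 to 995 CPM. Of 8 fibroblast markers, summing to 967 to 1015 and 840 to 899 CPM, ACTA2 was called higher (lost without knockdown library 1) and COL1A1 lower. VIM (928 and 834 CPM on average, not called) made up most of that sum, as KRT7 (1061 and 743 CPM) did of the bile duct sum. With most measured hepatocyte markers near the floor and KRT7 and VIM high, the markers go against the HepG2 label, and the line is called by its label here. The 6 endothelial markers summed to at most 2.18 CPM, and none of the 7 leukocyte markers reached 1 CPM in any library.

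An annexin consists of a conserved core of repeats, each of which can hold calcium while it binds acidic lipids of a membrane, and of an amino-terminal tail that differs between members and binds partner proteins. When calcium enters a cell, annexins move to the inner face of the plasma membrane and to endosomes, where they take part in membrane repair, vesicle fusion and the anchoring of actin. In the liver, ANXA4 is known from bile duct epithelium, ANXA10 from hepatocytes, and ANXA2 and ANXA3 have been studied in liver cancer.

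Levels of different genes were compared per length, as counts per kilobase of the longest annotated transcript, expressed as TPM, the analogue of CPM after division by length (the length-scaled level). ANXA2, which forms a complex with S100A10 and binds plasminogen at the cell surface, was highest at 708 to 882 over the 6 libraries. ANXA5, the protein used as a probe for phosphatidylserine on dying cells, came next at 430 to 575, and ANXA1, an inflammation-resolving ligand of formyl peptide receptors, at 242 to 321. These 3 ranges did not overlap. ANXA7, or synexin, lay at 115 to 136. ANXA3 (61.4 to 114), ANXA6 (82.2 to 97.1) and ANXA11 (67.3 to 85.7) overlapped in length-scaled level, so their order is not resolved. ANXA4, at 31.7 to 62.9, overlapped ANXA3 over the 6 libraries but was below it in each of them. ANXA9 (0.276 to 2.71) and ANXA10 (0 to 0.192) were near the floor. With all annotated exons as the length, 3 members changed rank, ANXA11 moving ahead of ANXA3 and ANXA6. Length-scaled ANXA2 exceeded that of 99.0% of all tested genes, and ANXA4 that of 74.5%.

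**Figure D1:**
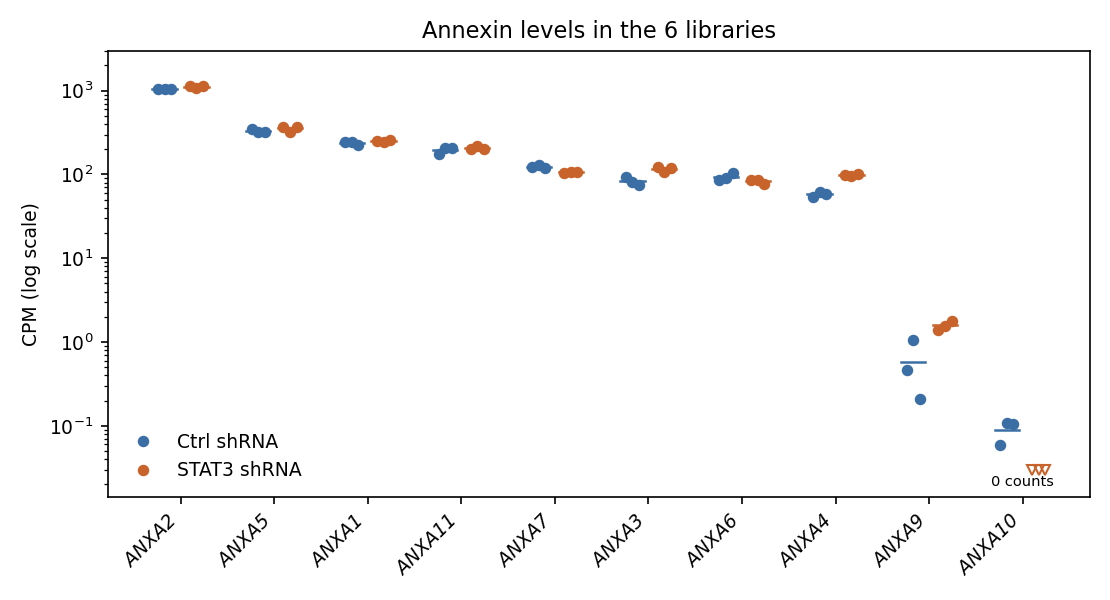
Level of each annexin member in CPM on a log axis, with 1 point per library, short lines for group means and open triangles for libraries with 0 counts; blue is Ctrl shRNA and orange STAT3 shRNA. ANXA2 lies between 1040 and 1138 CPM in all 6 libraries, ANXA4 is at 54.4 to 62.5 CPM in the controls and 95.6 to 101 CPM in the knockdown libraries, and ANXA9 and ANXA10 sit near the floor.

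The start regions of the members were read from RefSeq promoters of GRCh38.p14 (250 bases before to 50 after a start; all 10 members matched, with 14 windows). They are shown because the hairpin targets a transcription factor with a known recognition sequence, TTCNNNGAA, which reads the same on both strands. It was present in 1 of the 14 windows, against 7.66% of all 34943 promoter windows, and that window was of ANXA1. These letters are in neither ANXA4 window and not in the ANXA3 window, from which nothing follows for STAT3. The site begins at base 12 of the ANXA1 transcript and is shown with the bases around it, chr9:73151866-73151894 on the plus strand, with the motif in capitals:
ANXA1: gtgtgaaatcTTCAGAGAAgaatttctct

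The members also differ in the kind of start region. TATAAA, searched on both strands, was in 4 of the 14 windows, against 11.6% of all promoter windows, and in each it stood on the strand of the gene. It lay 31 bases before the start of ANXA1 and of ANXA2, 29 before that of ANXA10, and 61 before an ANXA11 start. The 26 bases around it, with the motif in capitals, are set side by side to show that abundant (ANXA2, ANXA1) and nearly silent (ANXA10) members share it. They lie at chr9:73151824-73151849 (plus strand), chr15:60398002-60398027 (minus), chr4:168092498-168092523 (plus) and chr10:80205854-80205879 (minus).
ANXA1: tttaaaatccTATAAAatcagaagcc
ANXA2: atgtggcgggTATAAAagccccaccc
ANXA10: gataactaagTATAAAtacagtatct
ANXA11: cgagtgttgcTATAAAggaaatgcgt

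A CpG ratio (observed over expected) of at least 0.6 was found in 9 of the 14 member windows, against 48.7% of all promoter windows. Windows of ANXA3, ANXA4, ANXA5, ANXA6 and ANXA7 were among them and held no TATAAA. The ANXA2 window (ratio 0.762) and the ANXA11 window with TATAAA (0.6) were also among them, so TATAAA and a high CpG ratio occurred together there. The 2 ANXA4 windows had 78.0% and 72.0% G and C, with 44 and 27 CpG, the ANXA3 window 64.7% with 25, and the ANXA5 window 76.3% with 36, beside a median of 58.7% G and C over all promoter windows. GGGCGG, searched on both strands, occurred 6 and 3 times in the ANXA4 windows and 0 times in that of ANXA3, and in 7 of the 14 member windows, against 44.9% of all. The first 90 bases of the downstream ANXA4 window, the end farthest from the start, hold 2 of them. They lie at chr2:69741884-69741973 on the plus strand, with the motif in capitals:
ANXA4: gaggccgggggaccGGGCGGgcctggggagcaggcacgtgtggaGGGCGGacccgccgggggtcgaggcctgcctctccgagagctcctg

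The comparison of the groups asked which annexin genes differed with the STAT3 shRNA. ANXA4 and ANXA3 rose, and no other tested member passed a false discovery rate (FDR) of 0.05 in either direction. That makes 2 of 9 tested members called, or 22.2%, against 17.5% of all 14999 tested genes (9.39% called higher and 8.13% called lower), a share near the background. Over all genes 1408 were called higher and 1219 lower, a share of higher calls of 53.6% that became 68.7% (1916 and 874) when libraries were scaled by their totals alone. Among the tested members the groups did not overlap for 4 that were higher (ANXA2, ANXA3, ANXA4, ANXA9) and 1 that was lower (ANXA7). Over all tested genes 35.7% did not overlap, 18.5% higher and 17.2% lower. The members' log2 fold changes, STAT3 shRNA over control, had a median of 0.09 and ran from -0.22 to 1.43, 7 of them above 0 and 2 below, beside a median of -0.01 over all tested genes.

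ANXA4 (ENSG00000196975.16) encodes a small annexin of epithelial cells that bridges membranes and lies near the apical surface. It was measured at 54.4, 62.5 and 58.7 CPM in controls 1, 2 and 3 and at 98.3, 95.6 and 101 CPM in knockdown libraries 1, 2 and 3. Every knockdown library was above every control, and the gap between the groups was far wider than the spread within either. Its mean rose from 58.5 ± 4.05 to 98.3 ± 2.69 CPM (SD, n = 3 per group), which is 1.68-fold (95% interval 1.46 to 1.93). The log2 fold change was 0.75 ± 0.0884 (SE; edgeR quasi-likelihood test, adjusted p = 5.05e-04), and it stayed between 0.71 and 0.85 over 15 alternative analyses, all of which called it. Among all genes called higher, 800 had a larger log2 fold change, so the rise was moderate for these libraries. In bulk RNA, a change in the share of cells with a messenger and a change in RNA per cell cannot be told apart. The bile duct markers KRT19 and EPCAM, of a tissue that contains ANXA4, were higher in the same libraries and KRT7 was lower (summed level of the 6 markers given above); their part in the ANXA4 value was not tested.

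The annotated gene of AAK1, a kinase of endocytosis, overlaps ANXA4 on the opposite strand and is named for that reason. The annotated exons of the 2 genes share 0 bases, so a read within annotated exons falls on 1 of them only, while reads of unspliced RNA could fall on both. AAK1 lay at 32.2, 26.9 and 18.3 CPM in the controls and 32.8, 28.3 and 35.003 CPM in the knockdown group. Its groups overlapped, and its log2 fold change of 0.31 ± 0.189 was not called (edgeR adjusted p = 0.293), except without control 1 (0.0421). Of the 20 annotated genes nearest ANXA4 on chromosome 2, 10 on each side, 9 were tested and had a median log2 fold change of 0.24. GFPT1, the entry enzyme of the hexosamine pathway, was the 1 called among them (0.61 ± 0.117, edgeR adjusted p = 0.00694), named here after its values were seen.

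The genes whose pattern over the 6 libraries was most like that of ANXA4 were the aldo-keto reductase AKR1C3, the lipid transporter ABCA3 and the membrane transporter SLC4A11. After each gene was centred on its own mean, they differed from ANXA4 by a root mean square of 0.0245, 0.0423 and 0.0653 on the log2 CPM scale, the smallest of 11062 genes compared. AKR1C3 rose from 146 to 242 CPM on average, a log2 fold change of 0.73 ± 0.0853. Its closeness to the value of ANXA4 follows from how these genes were picked. AKR1C genes are close copies of each other, so how reads were divided among them is uncertain.

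ANXA3 (ENSG00000138772.13), a short-tailed annexin, was at 93.1, 81.7 and 75.4 CPM in controls 1 to 3 and at 123, 106 and 120 CPM in the knockdown libraries. The groups did not overlap, but the lowest knockdown library lay only 12.9 CPM above the highest control. The mean rose from 83.4 ± 8.97 to 116 ± 9.003 CPM (SD, n = 3 per group), 1.395-fold (95% interval 1.18 to 1.65), and the log2 fold change was 0.48 ± 0.106 (edgeR adjusted p = 0.0136). Leaving out control 2 ended the call (adjusted p = 0.0757), as did leaving out knockdown library 1 (0.0788) or knockdown library 3 (0.0718), while the log2 fold change stayed between 0.42 and 0.58. None of the 3 tested neighbours of ANXA3 on chromosome 4 was called (median log2 fold change -0.03).

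**Figure D2:**
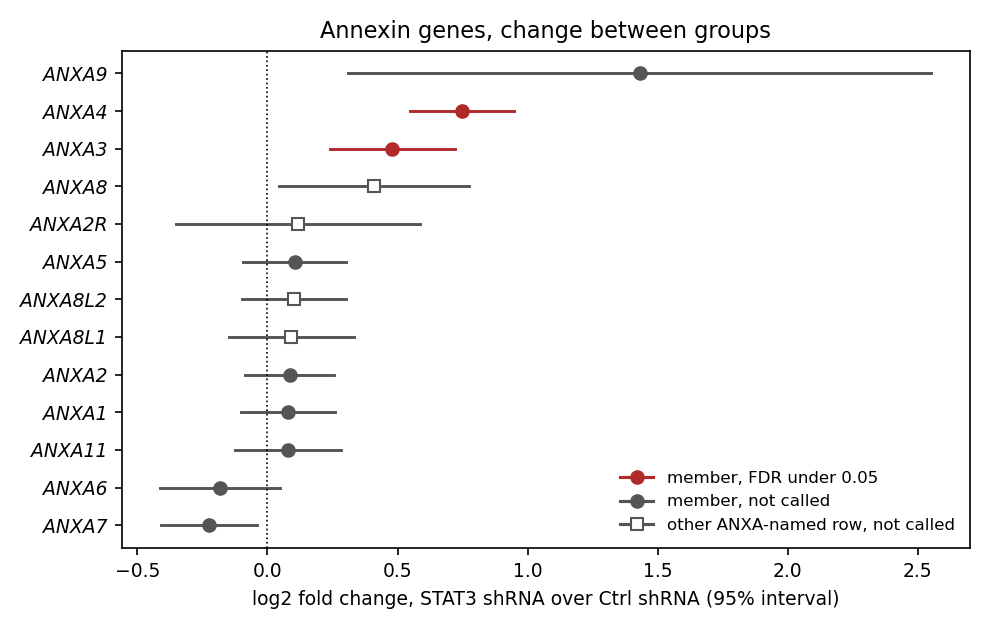
Log2 fold change of each tested annexin gene, STAT3 shRNA over Ctrl shRNA, with its 95% interval from the edgeR fit (3 libraries per group); filled circles are members, open squares other rows with an ANXA symbol, and red marks an FDR under 0.05. ANXA4 (0.75) and ANXA3 (0.48) are the called members, the intervals of ANXA1, ANXA2, ANXA5, ANXA6 and ANXA11 include 0, and ANXA9 has the widest interval.

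ANXA2, ANXA5, ANXA1 and ANXA11 were not called, and the upper ends of their 95% intervals lay at 1.23-fold or below. ANXA2 (ENSG00000182718.16) lay at 1057, 1040 and 1047 CPM in the controls and at 1138, 1066 and 1130 CPM in the knockdown libraries. All 3 knockdown libraries were above the controls, by as little as 8.32 CPM, and the fitted ratio was 1.06 (95% interval 0.942 to 1.19; edgeR adjusted p = 0.483). ANXA2 counts alone made up 48.2 ± 0.481% of the counts of all 10 members in the controls and 47.7 ± 0.255% in the knockdown libraries (SD, n = 3 per group).

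ANXA5 (ENSG00000164111.15) had 349, 321 and 318 CPM in the controls and 369, 325 and 368 CPM in the knockdown libraries, with knockdown library 2 inside the control range and a ratio of 1.08 (0.937 to 1.23). ANXA1 (ENSG00000135046.14) had 241, 246 and 224 CPM against 251, 243 and 258 CPM, a ratio of 1.06 (0.932 to 1.197). ANXA11 (ENSG00000122359.18), whose long tail binds the calcium sensor PDCD6 and S100A6, had 178, 206 and 207 CPM against 204, 218 and 202 CPM, a ratio of 1.06 (0.916 to 1.22). Control library 1 was the low one for ANXA11, and the other 2 controls lay within the STAT3 shRNA range. The edgeR adjusted p was 0.456 for ANXA5, 0.542 for ANXA1 and 0.595 for ANXA11, which does not show that they were equal. The intervals exclude a change of the size fitted for ANXA4 in each of these 4 members.

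Both members with fitted values below 0 missed the threshold. ANXA7 (ENSG00000138279.16), an annexin that aggregates secretory granules, lay at 123, 131 and 118 CPM in the controls and at 105, 106 and 108 CPM in the knockdown libraries. The groups did not overlap, and the ratio was 0.856 (95% interval 0.752 to 0.973), but the adjusted p was 0.0944 by edgeR and ranged from 0.0577 to 0.347 over 15 alternatives. An annotated antisense transcript shares 105 exon bases with ANXA7, and the strand setting of the counting is not given in the sources used here, so antisense reads could be included. ANXA6 (ENSG00000197043.14), which carries the annexin core in duplicate and binds cholesterol-rich late endosomes, lay at 86.2, 90.5 and 106 CPM against 85.0, 86.2 and 77.5 CPM. Its groups overlapped, with control 3 the highest, and its ratio was 0.881 (0.752 to 1.03; edgeR adjusted p = 0.257). Around ANXA6 on chromosome 5, 3 of 6 tested neighbours were called higher and 0 lower, so its fitted value did not follow theirs. They were DCTN4 (0.39 ± 0.110), TNIP1 (0.42 ± 0.0953) and ZNF300 (0.41 ± 0.122), all named after their values were seen. Leaving out control 2, or knockdown library 1 or 3, ended all 3 of these calls (adjusted p of 0.0671 to 0.180).

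The remaining members were barely expressed. ANXA9 (ENSG00000143412.10), whose calcium-binding sites are thought not to work, had 8, 20 and 4 counts in controls 1 to 3 and 37, 32 and 33 in knockdown libraries 1 to 3, or 0.467, 1.07 and 0.211 against 1.39, 1.57 and 1.80 CPM. The groups did not overlap and the ratio was 2.70, but its interval of 1.24 to 5.86 was wide and it was not called (edgeR adjusted p = 0.0806). ANXA9 passed with limma-voom (adjusted p = 0.0489), without a filter on low counts (0.0348) and without control 2 (0.0261), in which it had the most control counts. ANXA10 (ENSG00000109511.11) had 1, 2 and 2 counts in the controls and 0 in each knockdown library. A count of 0 allows up to 3 counts, or 0.113 to 0.164 CPM in the knockdown libraries, for counting error only, so no difference was detectable at this depth.

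Since scaling moves all genes together, the other members were also set against ANXA2 within each library, where scaling cancels. ANXA4 had 5.14, 6.01 and 5.61 counts per 100 ANXA2 counts in the controls and 8.64, 8.97 and 8.93 in the knockdown libraries. ANXA3 had 7.96 ± 0.805 and 10.5 ± 0.444 counts per 100 ANXA2 counts (SD, n = 3 per group), also without overlap. ANXA7 was lower by this measure, at 11.8 ± 0.685 and 9.56 ± 0.355, and ANXA6 at 8.98 ± 0.994 and 7.47 ± 0.618. ANXA5 had 31.4 ± 1.42 and 31.8 ± 1.14, ANXA1 had 22.6 ± 1.13 and 22.5 ± 0.423, and ANXA11 had 18.8 ± 1.73 and 18.7 ± 1.45, all with overlapping groups. Over the 8 ratios to ANXA2 that were tested, S100A10 included, the exact two-sided permutation p was 0.1 for ANXA3, ANXA4, ANXA6, ANXA7 and S100A10 (0.16 after Benjamini-Hochberg adjustment), the smallest that 3 against 3 libraries can give. For ANXA5, ANXA1 and ANXA11 it was 0.9, 0.8 and 1. ANXA4 was also set against ANXA7, the member with the lowest fitted value. Like the ratios to ANXA2, this pair was not planned beforehand. ANXA4 counts per 100 ANXA7 counts went from 47.2 ± 2.87 to 92.5 ± 1.83. These are ratios of unequal change and do not show which gene moved.

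**Figure D3:**
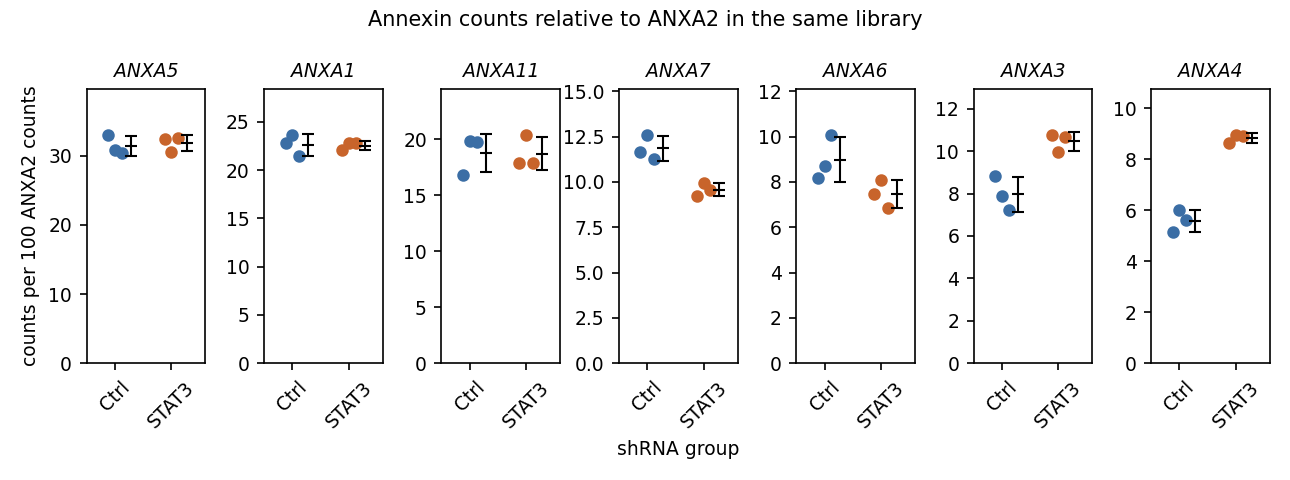
Counts of 7 annexin members per 100 ANXA2 counts of the same library, on linear axes from 0 that differ between panels; points are libraries, and black bars the mean ± SD of 3 libraries. ANXA4, ANXA3, ANXA7 and ANXA6 have groups that do not overlap, with ANXA4 at 5.14 to 6.01 against 8.64 to 8.97, and ANXA5, ANXA1 and ANXA11 overlap.

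Other rows with an ANXA symbol were examined for copies that could take reads from the members. ANXA8 is nearly identical to ANXA8L1: their longest transcripts matched at 99.4% over 2174 bases, so reads cannot be assigned with certainty. The deposited table also lists ANXA8L2, for which no identity is given here. Its ANXA8L1 and ANXA8L2 rows carry identifiers that the annotation used (GENCODE 29) lacks. The aligned ANXA8L1 transcript may therefore not be that of the ANXA8L1 row. ANXA8 had 19.1, 24.8 and 29.8 CPM against 36.3, 29.5 and 32.2 CPM, with overlapping groups; the log2 fold change was 0.41 ± 0.161 (edgeR adjusted p = 0.118). It was called with library totals (adjusted p = 0.0483) and without control 3 (0.0239). ANXA8L1 (0.09 ± 0.106) and ANXA8L2 (0.10 ± 0.0880) were not called. With the 3 rows summed, an analysis chosen after the data were seen, the copies lay at 105, 106 and 122 CPM against 130, 121 and 124 CPM. Their log2 fold change was 0.17 ± 0.0911 (edgeR adjusted p = 0.232), and knockdown library 2 fell within the control range. The processed pseudogene ANXA2P2, 98.2% identical to ANXA2 over 789 aligned bases, had 2 counts in control 2 and 0 in the others, while ANXA2 had 18128 to 30292 counts per library. ANXA2R, which encodes a proposed annexin A2 receptor and is no annexin, lay at 6.24 to 10.2 and 7.29 to 10.3 CPM (0.12 ± 0.207), and its sign turned without control 1 or knockdown library 2.

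Genes that work with annexins were then described from 7 lists, by counts and shares beside the 17.5% called over all genes. The lists were chosen with earlier results of these data known, so a share above 17.5% is a description and no test. Of 15 tested binding partners, 1 rose and 2 fell (20% called, median log2 fold change -0.04). S100A10, which joins ANXA2 into a complex of paired chains, rose from 268, 303 and 298 CPM to 455, 470 and 446 CPM, with no overlap (0.66 ± 0.0832, edgeR adjusted p = 7.05e-04; called in 15 of 15 alternatives). Per 100 ANXA2 counts, S100A10 had 27.7 ± 2.02 counts in the control and 41.2 ± 2.54 in the knockdown libraries (SD, n = 3 per group). PDCD6, the calcium sensor that binds ANXA7 and ANXA11, fell (-0.29 ± 0.0821, adjusted p = 0.0411), a call lost in 9 of 15 alternatives. The EF-hand protein GCA fell from 2.85 ± 0.138 to 0.506 ± 0.105 CPM. The lower count was 1 without control 2 or 3 or any one knockdown library, and with upper-quartile scaling or library totals. S100A11, the partner of ANXA1, was not called (343 ± 36.6 and 365 ± 30.3 CPM), nor was S100A6, which differed widely within groups (436 ± 185 and 259 ± 72.3 CPM); both were named after their values were seen.

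In calcium-driven membrane repair, 4 of 27 tested genes rose and 2 fell (22.2% called, median 0.00). The calpain CAPN2, a calcium-activated protease, rose from 173 ± 8.25 to 258 ± 11.7 CPM (0.57 ± 0.0826), the ESCRT-III subunit CHMP6 rose (0.65 ± 0.113), and so did the membrane fusion protein SNAP23 (0.41 ± 0.0964; call lost without control 2 or any one knockdown library). The other two called, CHMP2B (higher, lost in 5 of 15 alternatives) and EHD2 (lower, lost in 11), were named after their values were seen, and PDCD6, given above, was the other lower gene. Without control 2, or without knockdown library 1 or 3, 2 genes were called higher; leaving out any library other than control 1 gave 0 lower, and leaving out control 1 gave 5. The lower count was also 0 with library totals and with upper-quartile scaling. Dysferlin (DYSF), the muscle repair protein that binds ANXA1 and ANXA2, had 10 counts over all 6 libraries, was not tested and was named after its counts were seen.

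Phosphatidylserine, the lipid that ANXA5 binds, is kept on the inner leaflet by flippases. Of 23 tested genes listed for its exposure and recognition, 6 rose and 4 fell (43.5% called, median 0.14). The flippase family members ATP8B2 (3.01 ± 0.444 to 15.3 ± 0.892 CPM) and ATP8A1 (6.67 ± 0.893 to 21.8 ± 2.80 CPM) rose. MFGE8, a secreted bridge between phosphatidylserine and phagocytes, rose too (6.29 ± 0.513 to 18.7 ± 1.38 CPM), as did PROS1, a ligand of TAM receptors that binds phosphatidylserine (1.24 ± 0.115). The receptor AXL (0.67 ± 0.0865) and its ligand GAS6 (0.56 ± 0.158, a call lost in 4 of 15 alternatives) were the other higher genes. Among the lower genes were the flippase family members ATP9A (-0.44 ± 0.0897) and ATP10D (-0.50 ± 0.142) and the synthase PTDSS2 (-0.72 ± 0.112). These 5 were named after their values were seen. Genes of the flippase family thus moved both ways, though the call of ATP10D was lost in 7 of 15 alternatives and that of ATP9A without knockdown library 3. Which lipid each of them moves was not examined, so their changes are not readings of phosphatidylserine transport. The lower count was 2 without control 1 or 2 or knockdown library 1 or 2, 1 without knockdown library 3, and 2 with upper-quartile scaling or library totals.

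ANXA1 was first known as an inhibitor of phospholipase A2, which frees arachidonic acid for prostaglandin synthesis. In this list 5 of 13 tested genes rose and 1 fell (46.2% called, median 0.11), while ANXA1 was not called. Its formyl peptide receptors are not analysed here. PTGS2, or cyclooxygenase 2, rose from 10.97, 7.47 and 7.64 CPM to 43.2, 42.4 and 52.6 CPM (2.41 ± 0.169). The cytosolic phospholipase PLA2G4A (0.60 ± 0.107), the cyclooxygenase PTGS1 (0.63 ± 0.122) and the phosphatase DUSP1 (0.82 ± 0.111) rose too. The fifth, the prostaglandin E synthase PTGES (0.43 ± 0.0887), and the lower gene, the glucocorticoid-induced TSC22D3 (-0.52 ± 0.121), were named after their values were seen. The PTGES call was lost without control 2 or knockdown library 1. That of TSC22D3 was lost without control 2 or any one knockdown library, which brought the lower count to 0.

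ANXA2 with S100A10 binds plasminogen and its activator at the cell surface. The list for plasmin generation there also held coagulation genes, among them TFPI, F3 and PROCR. Of its 14 tested genes, 6 rose and 3 fell (64.3% called, median 0.10). The plasminogen activators PLAT (2.17 ± 0.503 and 2.23 ± 0.0662 CPM) and PLAU (0.481 ± 0.197 and 0.528 ± 0.132 CPM) were not called, and were named after their values were seen. TFPI, the inhibitor of tissue factor, fell from 59.9 ± 11.9 to 17.6 ± 1.33 CPM (-1.77 ± 0.154), and PLAUR, the urokinase receptor, from 37.6 ± 4.25 to 17.2 ± 2.06 CPM (-1.13 ± 0.131). The protease inhibitor SERPINE2 rose (1.57 ± 0.187), as did S100A10, given above. ENO1, the third lower gene (-0.31 ± 0.0806), was named after its values were seen, and its call was lost in 6 of 15 alternatives, among them library totals (adjusted p = 0.0901). Plasminogen itself (PLG), also named afterwards, had 6 counts over all libraries. The other higher genes, likewise named afterwards, were the plasmin inhibitor SERPINF2 (1.90 ± 0.283), the surface plasminogen binder KRT8 (0.67 ± 0.096), the protein C receptor PROCR (0.42 ± 0.106) and tissue factor F3 (0.44 ± 0.116), of which PROCR and F3 each lost the call in 5 of 15 alternatives. The higher count was 4 at the lowest when 1 library was left out, and the lower count 2.

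Among 5 tested copines, another family that binds phospholipid when calcium is present, 1 rose and 0 fell (20% called, median 0.07). The copine CPNE2 rose from 40.3 ± 4.72 to 58.0 ± 1.26 CPM (0.53 ± 0.105), a call lost without control 2 or knockdown library 1, and without control 1 CPNE7 was called lower (-0.44). Of 25 tested endosome, exocytosis and actin genes linked to annexins, 3 rose and 4 fell (28% called, median -0.08). The actin-nucleating subunit ARPC2 fell from 181 ± 8.73 to 118 ± 3.29 CPM (-0.61 ± 0.0814), the membrane-actin linker MSN, or moesin, fell (-0.35 ± 0.0807), and so did NPC1, the cholesterol exporter of late endosomes (-0.41 ± 0.0922). The MSN call was lost with library totals (adjusted p = 0.0626) and without control 2 or knockdown library 2 or 3 (0.0618 to 0.0853). That of NPC1 was lost with library totals (0.0545) and without any one knockdown library (0.0531 to 0.0802). SYTL4, a granule docking protein, rose from 1.399 ± 0.251 to 3.45 ± 0.648 CPM. The other three called, ACTN1 (lower), SPTAN1 and STX3 (both higher), were named after their values were seen, and each lost its call without control 2 or any one knockdown library. The higher count was 1 without control 2 or any one knockdown library. The lower count was 2 without control 2 or knockdown library 1, 1 without knockdown library 2 or 3, and 1 with library totals.

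**Figure D4:**
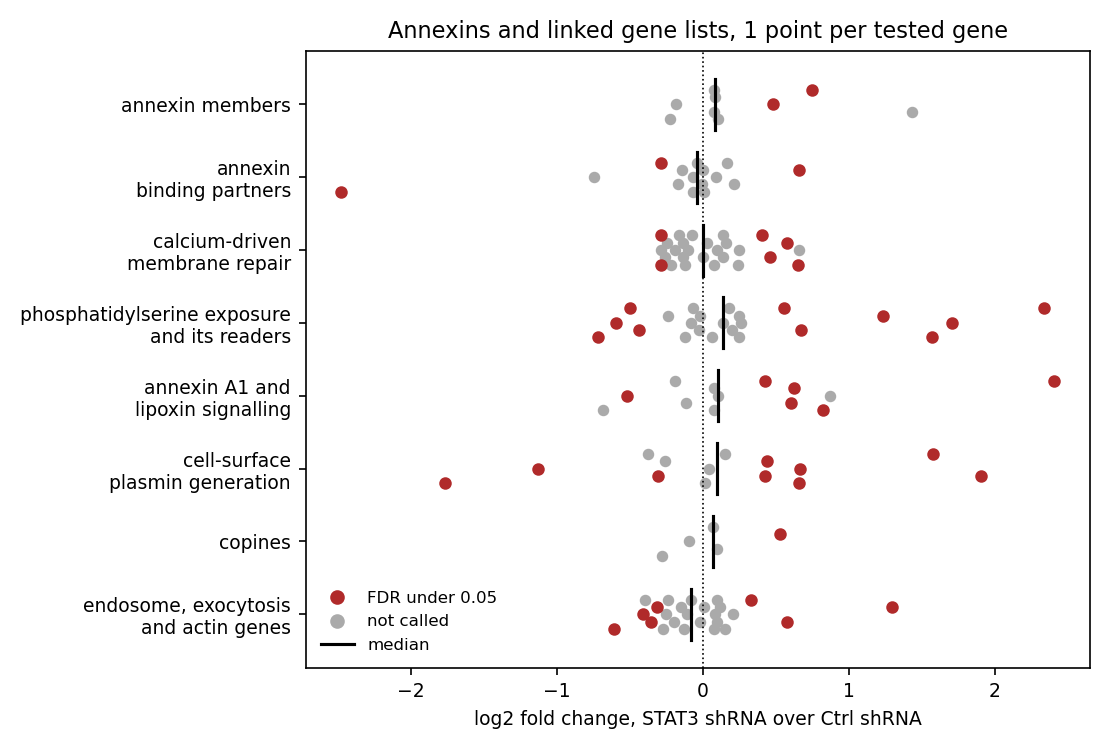
Log2 fold change of every tested gene of the annexin family and of 7 linked lists, STAT3 shRNA over Ctrl shRNA, with 1 point per gene, called genes (FDR under 0.05) in red and the list median as a black line; vertical offsets only separate points. The list medians lie between -0.08 and 0.14, and called genes lie on both sides of 0 in every linked list but the copines.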

How the data were processed

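The members and gene lists were chosen with earlier results of these data known. The authors deposited 1 table of whole-number counts per gene for 6 libraries, and the values, whole and with unequal totals, show no scaling. Aligner, counting program, strand setting and genome build: not given in the sources used here. edgeR 4.0.16 was run in R 4.3.3 on the counts. Genes were kept by filterByExpr (minimum count 10, minimum total 15), scaled by TMM, which assumes that most genes do not differ, and tested by the robust quasi-likelihood F test on group alone, two-sided, with Benjamini-Hochberg adjustment over 14999 genes. CPM values are scaled by TMM, SE is the log2 fold change over the root of F, and intervals are 95% intervals of the fit. Lengths, gene order and overlaps came from GENCODE 29, which held 25996 of 26420 identifiers; ANXA8L1 and ANXA8L2 carry identifiers it lacks. Transcripts were aligned with blastn 2.17.0. The procedure was tested on simulated counts. No 2 libraries of a group agreed within sampling noise (chi-square of at least 4.39 per degree of freedom). Named genes were STAT3, all members, ANXA rows with 10 counts or more, up to 4 called genes per list by FDR (or the 2 most abundant), and the 3 genes most like the most changed member, with a mean of at least 5 CPM. Protein features, also planned, are not analysed here. Alternatives were other scalings and filters, limma-voom (limma 3.58.1), the Wald test of DESeq2 1.42.0, a replicate block, and leaving out each library. Some genes of the lists are counted but not reported by name here.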

Additional observations from a re-analysis of the deposited data

How the results depend on the processing

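The signs of all 9 tested members held in 134 alternative results, and 128 of these kept their side of the threshold; the 3 lost calls were of ANXA3 and the 3 gained of ANXA9. Members called higher ranged from 1 to 2 and lower from 0 to 0 when 1 library was left out. Over all genes the higher count ranged from 796 to 2068 and the lower from 666 to 2030: 2068 and 2030 without control library 1, 819 and 708 without control library 2, 796 and 666 without STAT3 shRNA library 1, and 800 and 675 without STAT3 shRNA library 3. The log2 fold change of ANXA2R, 0.12, became -0.021 without control library 1 and -0.012 without STAT3 shRNA library 2, and ranged from -0.021 to 0.33 when 1 library was left out. The median over all tested genes was -0.01, against 0.05 under upper-quartile scaling and 0.09 under scaling by totals. Whether library numbers pair the samples is not given in the labels and could not be decided from the counts. The correlations of deviations from the group means were 0.279, 0.191 and -0.227 for numbers 1, 2 and 3. Numbers 1 and 3 of the control group correlated better with another number (0.298 and 0.333), while control 2 correlated best with its own number. These values are tied to each other, because the deviations sum to 0 within each group. The fit with the replicate block called 1210 genes higher and 1068 lower, against 1408 and 1219, with ANXA4 (0.75) and ANXA3 (0.48) still called. In that block fit, 1 binding partner and 0 membrane repair genes were lower, in place of 2 and 2. Upper-quartile scaling and library totals each gave 1 lower binding partner, 0 lower repair genes and 2 lower phosphatidylserine genes in place of 4, and library totals gave 1 lower endosome and actin gene in place of 4. Without the low-count filter 1 binding partner and 0 repair genes were lower, and a minimum count of 30 or a fit without robust dispersion each left 1 lower repair gene. With 1 library left out, higher and lower counts ranged from 1 to 1 and 1 to 2 for binding partners, 2 to 5 and 0 to 5 for repair, 5 to 7 and 1 to 5 for phosphatidylserine, 4 to 5 and 0 to 1 for the ANXA1 list, 4 to 6 and 2 to 3 for plasmin generation, 0 to 1 and 0 to 1 for copines, and 1 to 4 and 1 to 6 for endosome and actin genes. In the order by length-scaled level, 3 members moved with all annotated exons as length and 0 to 2 when 1 library was left out. Elsewhere the cause was not tested. Depth limits ANXA9 and ANXA10, which had at most 37 and 2 counts in a library.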
